A study of Mus musculus with 8 samples.

Results

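Fgf4 and 9 genes whose expression is known to follow ERK signalling (Dusp6, Dusp4, Spry2, Spry4, Egr1, Etv4, Etv5, Phlda1 and Ier3) were followed across 8 total RNA libraries of mouse embryonic stem cells (ESCs). They were chosen by name as 10 of the 55401 genes counted, and 9 of them passed the filter on low counts that left 17532 genes for testing. The filter removed Egr1. The libraries fell into 3 groups: 3 libraries carried the label Yeats2 auxin, 3 the label Zzz3 auxin and 2 the label Control. The proteins ZZZ3 and YEATS2 both belong to ATAC, the Ada-two-A-containing coactivator complex. In the auxin groups one or the other carried an AID, the auxin-inducible degron, through which Tir1 marks a protein for destruction once auxin is present. Auxin was given at 500 µM for 24 h. All groups, controls included, are described as grown in serum with LIF and 2i, that is 3 µM CHIR99021, a GSK3 inhibitor, and 1 µM PD0325901, a MEK inhibitor, with G418 to keep Tir1. The labels leave the line and treatment of the controls open. The legends of the supplement set DMSO against auxin in cells with either AID fusion, the methods name a wild-type reference, and neither says which cells gave these 2 control libraries, so an effect of depletion, of auxin itself and of the line cannot be told apart in a comparison with control. Independent cultures are described for the labelling of nascent RNA, but the labels tie no library analysed here to a culture, and P values then measure the spread between these libraries, which may be technical. Counts of Yeats2 auxin replicates 1 and 3 differed less than those of other pairs within a group (chi-square per gene 3.55 against 19.7 to 47.9). The reason was not tested.

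FGF4 is the growth factor that ESCs secrete and respond to themselves. It binds FGF receptors, which through RAS and RAF activate the kinase MEK, and MEK in turn activates ERK. Active ERK switches on a small set of genes, among them transcription factors of the ETS family (ETV4, ETV5) and immediate early genes (EGR1, IER3), and also the inhibitors that shut the pathway down again: the Sprouty proteins, which act upstream of ERK, and the dual-specificity phosphatases DUSP6 and DUSP4, which remove phosphate from ERK. In ESCs this pathway prepares the cells for differentiation, and PD0325901 in 2i blocks it at MEK. No library without the MEK inhibitor was part of the comparison.

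Libraries held 14315120 to 27884704 counts assigned to genes, and both this depth and the number of controls limit the precision. The libraries were ESC-like by the markers examined: the 8 ESC markers, such as Pou5f1 and Nanog, summed to 1660 to 2050 FPKM per library, against 0.675 to 0.991 for 5 primitive endoderm markers, 6.63 to 11.1 for 4 neuroectoderm markers, 4.52 to 8.87 for 4 mesendoderm markers and 0.198 to 0.369 for 5 fibroblast markers, of which Dcn was at 0 in every library. Zzz3 auxin replicate 1 held the lowest ESC sum and the highest sum of every other marker list, for reasons not tested. FPKM here is the share of a library's counts scaled to CPM with TMM factors (edgeR's trimmed mean) and divided by the kilobases of annotated exon. Of the targeted genes, Zzz3 mRNA fell from 184 ± 3.23 CPM (SD, n = 2) in control to 95.5 ± 17.3 (n = 3) in Zzz3 auxin, a log2 fold change (FC) of -0.95 (SE 0.14, adjusted P 0.0187 by edgeR). Yeats2 mRNA in Yeats2 auxin had a log2 FC of -0.32 (SE 0.26, adjusted P 0.605 by edgeR). Its libraries were uneven, with 77.3, 103 and 43.7 CPM against 90.9 and 95.8 in control. Over fits that each left out 1 library, the log2 FC of Zzz3 was -1.06 to -0.80 and its adjusted P 0.00389 to 0.293 by edgeR, above the threshold of 0.05 in the fits without either control, replicate 1 of Zzz3 auxin or replicates 1 or 3 of Yeats2 auxin. The degron acts on the protein, so neither mRNA needs to fall. Control replicate 1 and Zzz3 auxin replicate 3 stood apart in how counts followed base composition. Relative to the mean of all libraries, the gap between the median log2 levels of GC-rich genes (over 53.9% GC) and of GC-poor genes (under 44.3%) was -0.59 and 0.43 in these 2 libraries and -0.08 to 0.15 in the other 6, and values without them are given for the genes called by DESeq2 alone.

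The first question was how strongly each gene was expressed under MEK inhibition. Levels per kilobase spanned a wide range. Fgf4 itself was the most abundant of the 10, at 90.5 ± 5.11 FPKM (SD over 8 libraries), above 97.1% of the 13634 protein-coding genes tested. Etv5, an ETS factor of the PEA3 group, followed with 73.9 ± 5.12 FPKM and was above 96.0% of them. The range of Fgf4 over the libraries, 80.8 to 97.7 FPKM, did not meet that of Etv5, 63.0 to 78.3. Spry2 had 26.6 ± 7.50 FPKM and Etv4, the close relative of Etv5, 9.93 ± 2.45, and their ranges of 13.3 to 35.1 and 6.66 to 13.9 overlapped. With the length of the longest transcript in place of all exons, Etv4 had 12.9 FPKM.

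The remaining members sat in the middle or at the bottom of the distribution. Dusp6, the cytoplasmic ERK phosphatase, had 4.81 ± 0.698 FPKM, near the middle of all protein-coding genes (above 48.7%). Ier3 had 2.74 ± 0.669 FPKM. Spry4, Phlda1 and Dusp4, the nuclear ERK phosphatase, had 0.745 ± 0.399, 0.370 ± 0.152 and 0.354 ± 0.113 FPKM, and the ranges of Spry4 and Phlda1 and those of Phlda1 and Dusp4 overlapped. Egr1, a zinc finger factor of the immediate early class, was nearly absent, with 16 counts in the 8 libraries together and 0.0196 FPKM. The 10 genes thus ran from near the top to the bottom of the protein-coding genes.

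**Figure D1:**
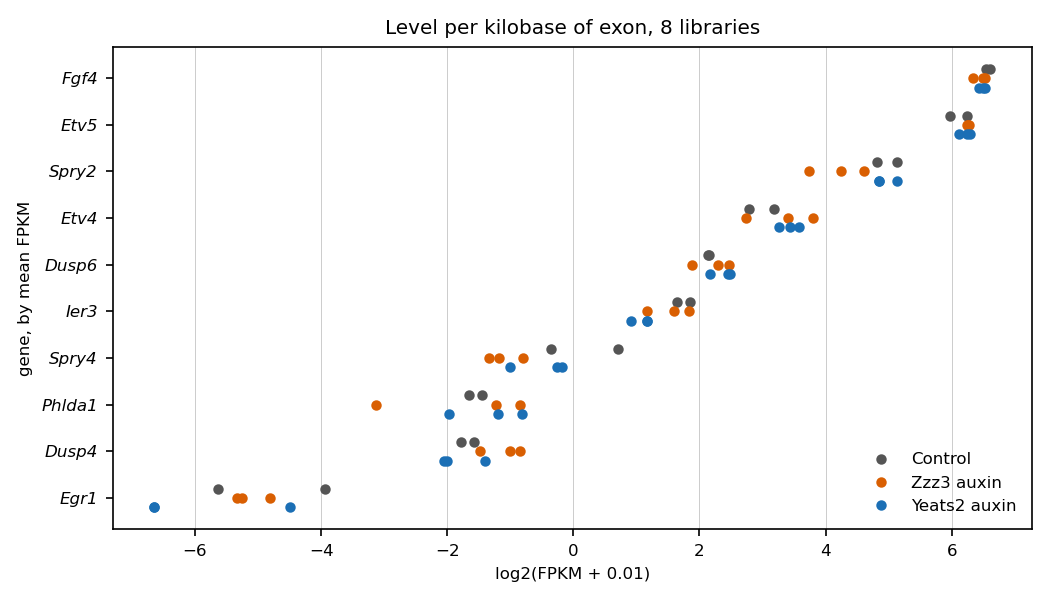
Level of each of the 10 genes in every library, as log2(FPKM + 0.01) on the x axis with genes ordered by mean FPKM on the y axis. Points are single libraries, coloured by group. Fgf4 and Etv5 lie at the right, with tight points, and Egr1 lies at the left, with 2 Yeats2 auxin libraries at 0.

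The windows upstream of 3 start sites are shown because they belong to the most abundant member (Fgf4), to the sprouty gene of higher level (Spry2) and to the ERK phosphatase of higher level (Dusp6). The ETS core GGAA, read on both strands and so also as TTCC, is the heart of the sequence that ETS factors such as ETV4 and ETV5 bind. It is in capitals. Each line is 250 bases ending just before the RefSeq transcript start, on GRCm38.p6, written in the direction of transcription: Fgf4 at chr7:144861136-144861385 on the plus strand, Dusp6 at chr10:99262981-99263230 on the plus strand and Spry2 at chr14:105896820-105897069 on the minus strand.
Fgf4: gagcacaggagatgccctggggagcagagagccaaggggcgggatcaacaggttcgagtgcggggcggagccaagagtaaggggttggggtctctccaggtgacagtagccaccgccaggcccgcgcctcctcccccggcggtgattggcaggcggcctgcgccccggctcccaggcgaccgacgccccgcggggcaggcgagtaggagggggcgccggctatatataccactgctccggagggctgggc
Dusp6: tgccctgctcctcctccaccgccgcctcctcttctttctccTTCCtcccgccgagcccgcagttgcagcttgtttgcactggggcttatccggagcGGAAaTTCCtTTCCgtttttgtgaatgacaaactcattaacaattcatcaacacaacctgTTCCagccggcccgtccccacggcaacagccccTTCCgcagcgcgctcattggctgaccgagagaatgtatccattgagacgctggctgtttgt
Spry2: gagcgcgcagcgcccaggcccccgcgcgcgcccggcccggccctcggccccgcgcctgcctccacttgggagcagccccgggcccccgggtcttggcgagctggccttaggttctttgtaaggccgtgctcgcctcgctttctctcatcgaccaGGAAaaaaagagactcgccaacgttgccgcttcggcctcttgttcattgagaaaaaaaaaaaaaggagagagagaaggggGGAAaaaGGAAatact

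The windows differed in the motif. The Dusp6 window held 6 ETS cores, and 8.7% of 32851 RefSeq windows of the same length held at least that number. The Spry2 window held 3, a number that 54.7% of windows reach, and the Fgf4 window held none. A core of these 4 letters is common, being present in 93.4% of windows with a median of 3. RefSeq windows were at hand for 5 of the 10 members (6 windows). The Ier3 window held 5 cores, and the 2 Etv5 windows held 0 and 4. None of the 6 windows held the cyclic AMP response element TGACGTCA, the AP-1 site TGANTCA, the EGR site GCGNGGGCG or the serum response element (CArG box), which occur in 1.5%, 6.7%, 4.7% and 1.5% of windows. The GC box GGGCGG, found in 32.7% of windows, occurred 2 times in that of Fgf4, 3 times in one of Etv5 and 1 time in that of Ier3. A match is a string of letters and does not show binding.

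Fgf4 (ENSMUSG00000050917, GRCm38 chromosome 7, 144847367 to 144865243, plus strand), the ligand, stayed close to its control level in both depletions. It had 299 and 312 CPM in the controls, then 258, 296 and 290 after Zzz3 auxin and 293, 289 and 275 after Yeats2 auxin. All 6 auxin libraries lay below both controls, though by little. The log2 FC was -0.12 in Zzz3 auxin (SE 0.11, 95% interval -0.36 to 0.12, adjusted P 0.548 by edgeR) and -0.10 in Yeats2 auxin (SE 0.11, interval -0.34 to 0.14, adjusted P 0.714 by edgeR). Fgf4 was also among the steadiest genes between replicates: the within-group SD of its log2 CPM was 0.0763, lower than in all but 4.31% of genes tested, against a median of 0.241. Abundant genes have less counting error, which is part of any such SD.

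Etv5 (ENSMUSG00000013089, chromosome 16, 22381309 to 22439719, minus strand) and Etv4 (ENSMUSG00000017724, chromosome 11, 101769742 to 101785371, minus strand) encode the ETS factors that act downstream of ERK. Etv5 had 259 and 309 CPM in the controls, then 317, 313 and 312 after Zzz3 auxin and 321, 285 and 310 after Yeats2 auxin. Control replicate 1 was its lowest library, and the other 7 spanned 285 to 321. Its log2 FC was 0.15 in Zzz3 auxin (SE 0.12, adjusted P 0.493 by edgeR) and 0.11 in Yeats2 auxin (SE 0.12, adjusted P 0.703 by edgeR). Etv4 varied more, with 21.3 and 28.1 CPM in control, then 20.7, 32.9 and 43.2 after Zzz3 auxin and 37.0, 29.8 and 33.6 after Yeats2 auxin. Zzz3 auxin held both its lowest and its highest library, and all Yeats2 auxin libraries lay above both controls. The log2 FCs of 0.38 (SE 0.25, adjusted P 0.414 by edgeR) and 0.44 (SE 0.25, adjusted P 0.447 by edgeR) did not pass the test.

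Dusp6 (ENSMUSG00000019960, chromosome 10, 99263231 to 99267489, plus strand) had 13.9 and 13.7 CPM in control, then 11.5, 17.3 and 15.4 after Zzz3 auxin and 17.2, 14 and 17.6 after Yeats2 auxin. The Zzz3 auxin libraries lay on both sides of the controls, and those of Yeats2 auxin lay above them. The log2 FC was 0.10 in Zzz3 auxin (SE 0.19, interval -0.33 to 0.52, adjusted P 0.809 by edgeR) and 0.24 in Yeats2 auxin (SE 0.19, interval -0.19 to 0.66, adjusted P 0.597 by edgeR). Dusp4 (ENSMUSG00000031530, chromosome 8, 34807297 to 34819894, plus strand) had 181 counts in all. It had 0.888 and 0.771 CPM in control, then 1.5, 0.953 and 1.34 after Zzz3 auxin and 0.658, 1.01 and 0.633 after Yeats2 auxin. The 3 Zzz3 auxin libraries were above the controls, with a log2 FC of 0.60 (SE 0.36, interval -0.20 to 1.39, adjusted P 0.368 by edgeR). In Yeats2 auxin the log2 FC was -0.10 (SE 0.37, adjusted P 0.923 by edgeR). Neither phosphatase gene passed the test in either depletion.

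The sprouty genes gave the largest differences among the members in Zzz3 auxin. Spry2 (ENSMUSG00000022114, chromosome 14, 105891947 to 105896819, minus strand) had 72.9 and 59.0 CPM in control, then 39.7, 51.1 and 27.7 after Zzz3 auxin and 73.2, 59.8 and 60.2 after Yeats2 auxin. Every Zzz3 auxin library was below every library of the other groups, while Yeats2 auxin and control overlapped. Spry4 (ENSMUSG00000024427, chromosome 18) had 7.70 and 3.67 CPM in control, then 1.84, 2.05 and 2.68 after Zzz3 auxin and 3.95, 2.32 and 4.15 after Yeats2 auxin. Its Zzz3 auxin libraries were below both controls, and the controls differed from each other more than control replicate 2 differed from the auxin libraries.

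For Spry2 the log2 FC in Zzz3 auxin was -0.73 (SE 0.21, 95% interval -1.20 to -0.27), or 0.601 of control, at an unadjusted P of 0.005 and an adjusted P of 0.0974 by edgeR. For Spry4 it was -1.39 (SE 0.35, interval -2.15 to -0.63), or 0.381 of control, at an unadjusted P of 0.00189 and an adjusted P of 0.0762 by edgeR. Neither was called by edgeR at the threshold of 0.05. The study used an earlier version of DESeq2. For depletion of another protein, TIP60, it also asked for more than a 2-fold change, which Spry2 did not reach. Here DESeq2 called both by adjusted P alone, at 0.0268 for Spry2 and 0.00708 for Spry4. Without a filter on low counts edgeR called both as well, with adjusted P of 0.000319 and 0.000131. Both values moved with single libraries. Without Control replicate 1 the log2 FC of Spry4 was -0.77 (adjusted P 0.618 by edgeR) and that of Spry2 -0.58 (adjusted P 0.605 by edgeR). Without both Control replicate 1 and Zzz3 auxin replicate 3, a fit chosen after seeing the data, Spry2 had -0.37 (adjusted P 0.461 by edgeR) and Spry4 -0.91 (adjusted P 0.389 by edgeR). DESeq2 on the same 6 libraries called neither (adjusted P 0.55 and 0.494). Without Zzz3 auxin replicate 2, Spry2 had -0.96 and was called (adjusted P 0.033 by edgeR).

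In Yeats2 auxin, Spry2 had a log2 FC of -0.03 (SE 0.21, interval -0.50 to 0.43, adjusted P 0.957 by edgeR) and Spry4 one of -0.71 (SE 0.34, interval -1.44 to 0.02, adjusted P 0.355 by edgeR), which was -0.08 without Control replicate 1. Set directly against each other, Yeats2 auxin had more Spry2 than Zzz3 auxin, by 0.70 on the log2 scale (SE 0.19, interval 0.28 to 1.12), with an unadjusted P of 0.00365 that did not hold over all genes (adjusted P 0.779 by edgeR, DESeq2 adjusted P 0.358). It was called only without the filter on low counts (adjusted P 0.000671 by edgeR). For Spry4 the direct difference was 0.68 (SE 0.32, interval -0.02 to 1.39, adjusted P 0.779 by edgeR).

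**Figure D2:**
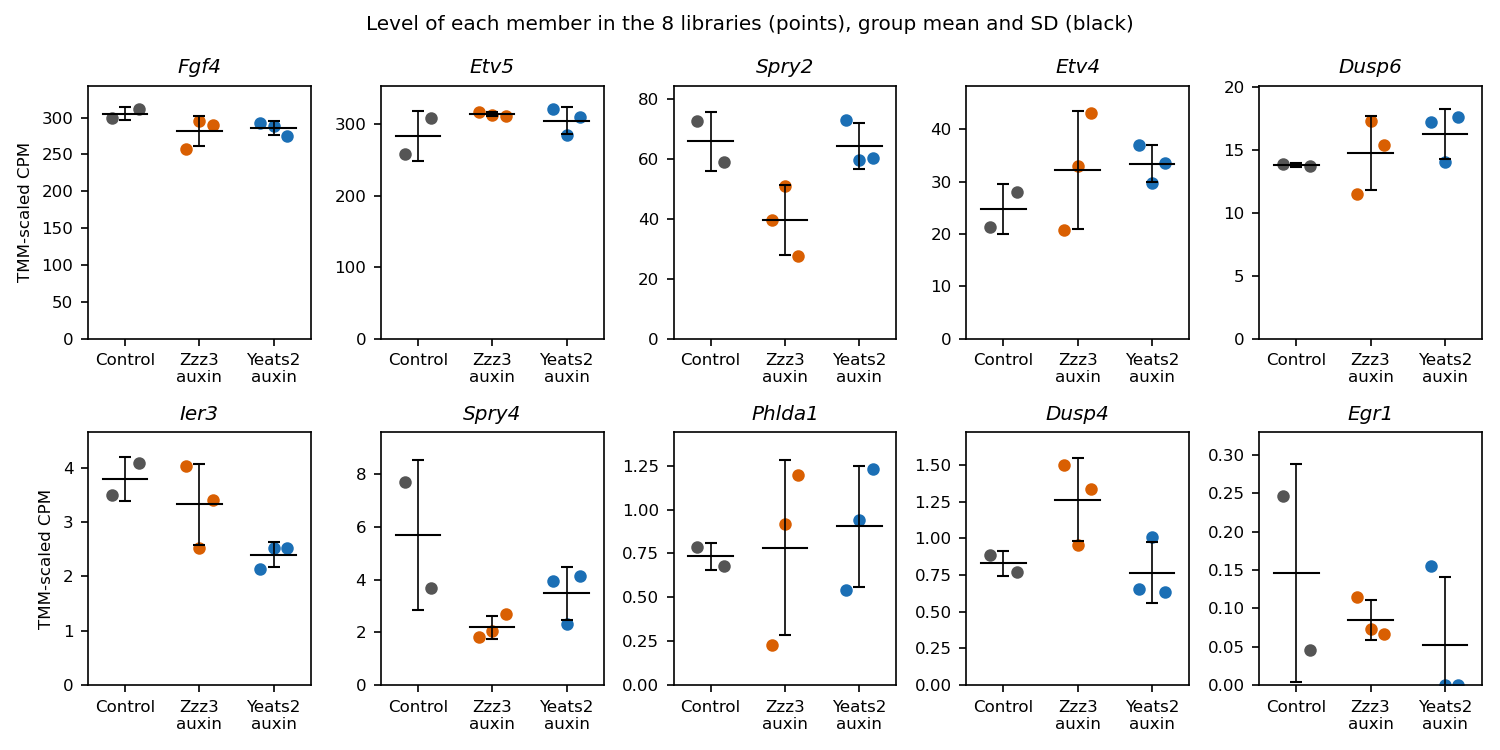
Level of each of the 10 genes in TMM-scaled CPM (y axis, from 0) by group (x axis). Points are libraries, the horizontal bar is the group mean and the whiskers are 1 SD (n = 2 for Control and 3 for each auxin group). Spry2 in Zzz3 auxin, at 27.7 to 51.1 CPM, lies below all other libraries, Spry4 has 1 control at 7.70 CPM far from the rest, and Fgf4 stays between 258 and 312 CPM.

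Ier3 (ENSMUSG00000003541, chromosome 17, 35821684 to 35822923, plus strand), a short immediate early gene, was the member with the smallest P in Yeats2 auxin. It had 3.50 and 4.08 CPM in control, then 4.03, 2.53 and 3.41 after Zzz3 auxin and 2.13, 2.53 and 2.53 after Yeats2 auxin. All Yeats2 auxin libraries were below both controls, while those of Zzz3 auxin overlapped them. The log2 FC in Yeats2 auxin was -0.66 (SE 0.25, interval -1.20 to -0.12, unadjusted P 0.0213, adjusted P 0.252 by edgeR), and it was -0.19 in Zzz3 auxin (SE 0.25, adjusted P 0.689 by edgeR). Ier3 was not called in either comparison.

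Phlda1 (ENSMUSG00000020205, chromosome 10, 111506286 to 111508645, plus strand), which encodes a protein with a pleckstrin homology-like domain, had 151 counts in all. It had 0.789 and 0.680 CPM in control, then 0.230, 0.916 and 1.20 after Zzz3 auxin and 0.542, 0.941 and 1.23 after Yeats2 auxin. Libraries of one group spread further than the groups did, and the within-group SD of its log2 CPM, 0.770, exceeded that of 97.1% of genes tested. Its log2 FCs were 0.03 (SE 0.59) and 0.30 (SE 0.57), with adjusted P of 0.986 and 0.839 by edgeR. Phlda1 shares 727 exonic bases with Gm28592 on the opposite strand, and whether the counting used strand is not stated. Counted without strand, reads in these bases would be ambiguous and left out, which would lower the counts. Phlda1 was the only member that shared exonic bases with another annotated gene.

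Egr1 (ENSMUSG00000038418, chromosome 18) had 5 and 1 counts in control, then 3, 2 and 1 after Zzz3 auxin and 4, 0 and 0 after Yeats2 auxin. A count of 0 allows up to 3 counts, which is 0.109 and 0.119 CPM in Yeats2 auxin replicates 2 and 3, for counting error only. No difference in Egr1 was detectable at this depth.

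As a list, none of the 9 tested was called by edgeR for Zzz3 auxin, where 0.753% of all genes were called (132 of 17532, and 0 to 841 when 1 library was left out). At a raw P below 0.05 there were 2 members, both lower (Spry2 and Spry4), where 21.7% of all genes passed. DESeq2 called the same 2, against 8.50% of the genes to which it gave an adjusted P. It gave none to Dusp4 and Phlda1. The libraries of Zzz3 auxin and control did not overlap for 5 members (Dusp4 and Etv5 higher, Fgf4, Spry2 and Spry4 lower), against 35.8% of all genes. The median log2 FC of the 9 was 0.03, beside 0.01 for all genes, with 5 values above 0 and 4 below.

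In Yeats2 auxin edgeR again called none of the 9, where 0.445% of all genes were called (78 of 17532, and 0 to 217 when 1 library was left out), and DESeq2 called none, where 3.31% were. DESeq2 again gave no adjusted P to Dusp4 and Phlda1. At a raw P below 0.05 there was 1 member by edgeR (Ier3), where 14.6% of genes passed. The groups did not overlap for 4 members (Dusp6 and Etv4 higher, Fgf4 and Ier3 lower), against 40.3% of all genes, and the median log2 FC was -0.03, beside -0.01 for all genes. Both comparisons share the 2 controls. Between Yeats2 auxin and Zzz3 auxin edgeR called no gene at all (0%) and DESeq2 called 3 (0.0171%), with no member among them. At a raw P below 0.05 there were 2 members, Spry2 higher in Yeats2 auxin and Dusp4 lower (log2 FC -0.70, SE 0.32), where 6.25% of genes passed, and Spry2 was the 1 member whose groups did not overlap, against 11.1% of genes.

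**Figure D3:**
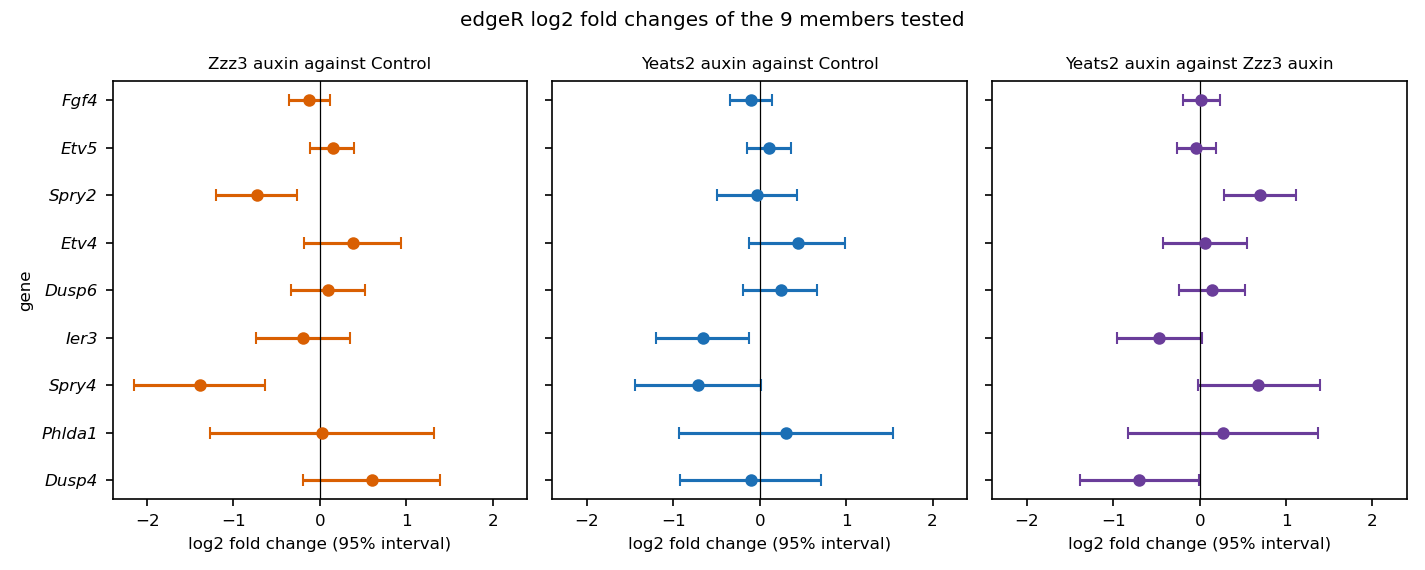
Log2 FC (x axis) of the 9 members tested, in order of level (y axis), for the 3 comparisons, with bars for the 95% interval of the edgeR fit. In Zzz3 auxin against control the intervals of Spry2 (-1.20 to -0.27) and Spry4 (-2.15 to -0.63) lie below 0, and in Yeats2 auxin that of Ier3 (-1.20 to -0.12) does. The intervals are not adjusted for the number of genes.

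Base composition differed among the members. Spry2 had the lowest GC content of the longest transcript, 46.2%, and Etv4 and Phlda1 the highest, 58.7% and 58.9%. In Zzz3 auxin replicate 3, the library with the most GC-rich bias, Spry2 was at its lowest (27.7 CPM) and Etv4 at its highest (43.2 CPM), and Control replicate 1, biased the other way, had high Spry2 (72.9 CPM) and low Etv4 (21.3 CPM). The lowest Etv4 of all was that of Zzz3 auxin replicate 1 (20.7 CPM), the second most GC-rich library. The highest Spry2 was that of Yeats2 auxin replicate 1 (73.2 CPM), which had little bias (0.04). Once the trends on GC content and exon length had been taken out of every library, the log2 FC in Zzz3 auxin was -0.63 for Spry2 (adjusted P 0.133 by edgeR) and -1.47 for Spry4 (adjusted P 0.0768 by edgeR). Without correction they had -0.73 and -1.39, and without Control replicate 1 and Zzz3 auxin replicate 3 they had -0.37 and -0.91. With the correction the log2 FC of Etv4 went from 0.38 to 0.01, that of Dusp4 from 0.60 to 0.35 and that of Phlda1 from 0.03 to -0.34. In Yeats2 auxin Etv4 went from 0.44 to 0.22, and Ier3 from -0.66 to -0.76. Whether base composition caused any of these values was not tested.

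**Figure D4:**
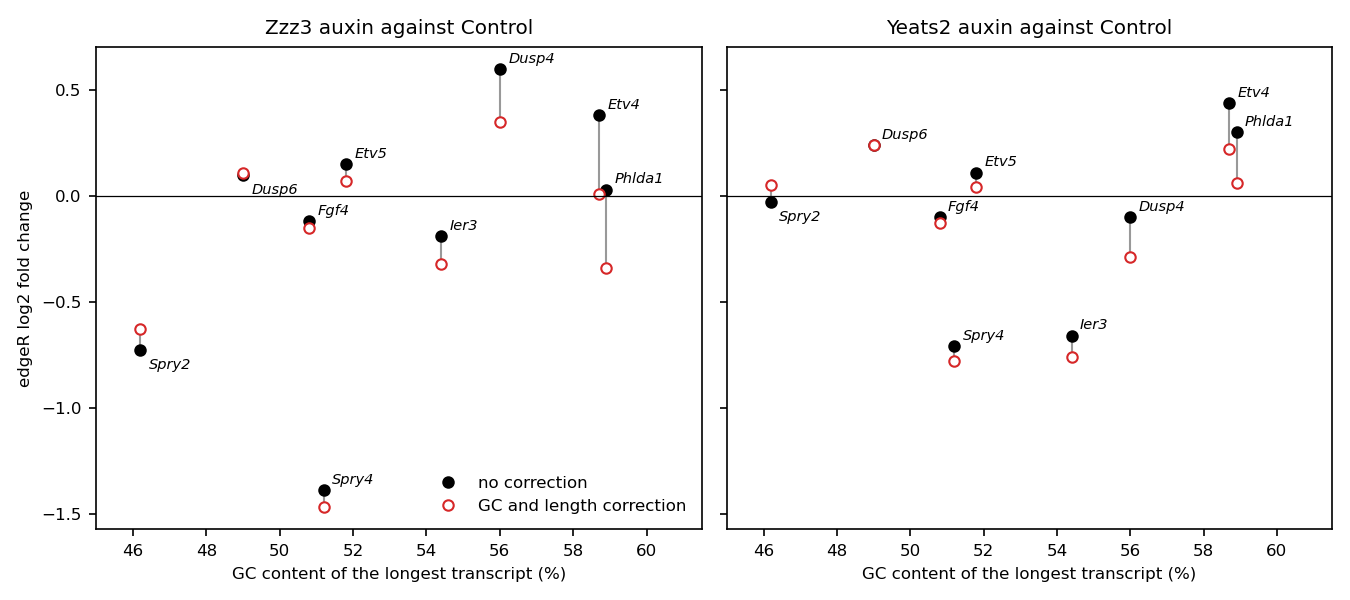
Log2 FC against control (y axis) of the 9 members by the GC content of the longest transcript in percent (x axis), without correction (black) and after the trends on GC content and exon length were taken out of every library (open red circles). In Zzz3 auxin the corrected values are -0.63 for Spry2, -1.47 for Spry4, 0.01 for Etv4 and -0.34 for Phlda1.

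The genes whose log2 CPM followed Fgf4 and Dusp6 most closely over the 8 libraries were looked up among 11104 protein-coding genes, as a description. The points are 8 libraries that differ in depth and in base composition bias, and no test was made. For Fgf4 they were Rpl3 (Pearson r 0.973), Rpl24 (0.971) and Tgfbi (0.963). Rpl3 and Rpl24 encode ribosomal proteins and have many near-identical copies in the genome, which makes their counts uncertain. For Dusp6 they were Ddah1 (0.961), Pid1 (0.946) and Egfr (0.938), the last being the receptor for EGF, which also signals to ERK. No member was among the closest. The member closest to Dusp6 in the positive direction was Etv4 (0.756), Ier3 ran opposite to it (-0.786), and Fgf4 and Dusp6 had an r of 0.295.

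The rest of the pathway was examined through 5 lists of other genes, ordered here from the cell surface to the nucleus. edgeR called no gene of any of them in either depletion, so the values that follow did not pass the test over all genes. DESeq2 gave no adjusted P to some list genes of low count, such as Fos and Fgfr4. It called 4 of the list genes for Zzz3 auxin, named where they appear, and none for Yeats2 auxin, where it called 8.50% and 3.31% of all genes with an adjusted P. Without Control replicate 1 and Zzz3 auxin replicate 3 it called none of the 4, at adjusted P of 0.52 to 0.754. The counts at a raw P below 0.05 stand beside 21.7% of all genes for Zzz3 auxin and 14.6% for Yeats2 auxin, and the medians beside 0.01 and -0.01. Of 15 FGF ligands and receptors, 12 were tested. In Zzz3 auxin 4 of them were higher and 0 lower at a raw P below 0.05, and their median log2 FC was 0.54. In Yeats2 auxin there were 2 and 0 and the median was -0.20. Fgfr4 and Fgfbp3, among the 4 and also the 2 in Yeats2 auxin, had control means of only 0.358 and 0.315 CPM. Fgf1, at 0.189 CPM in control, entered the Zzz3 auxin median with a log2 FC of 1.23. Fgf15, at 0.42 CPM, entered it with -0.82. The filter can keep genes this low for the libraries where they are higher. The most abundant were Fgfr1, the main FGF receptor of ESCs, with a log2 FC of 0.26 in Zzz3 auxin (SE 0.16) and 0.29 in Yeats2 auxin (SE 0.16), Fgfbp1, a secreted carrier of FGFs, with 0.67 (SE 0.25) and 0.25 (SE 0.25), and the ligand Fgf17 with 0.77 (SE 0.37) and -0.35 (SE 0.37). Fgf17 had 11.8 and 8.17 CPM in Zzz3 auxin replicates 1 and 3 and 3.85 in replicate 2, against 4.39 and 4.90 in control. The GC and length correction gave Fgfr1 -0.01 for Zzz3 auxin and 0.10 for Yeats2 auxin, Fgf17 0.44 and -0.56 and Fgfbp1 0.74 and 0.28.

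All 21 signal transducers from the receptor adaptors to ERK were tested. In Zzz3 auxin 3 were higher and 4 lower at a raw P below 0.05, with a median log2 FC of -0.05, and in Yeats2 auxin 2 and 1, with a median of -0.01. Map2k1, which encodes MEK1, a target of PD0325901, had log2 FCs of -0.11 (SE 0.12) for Zzz3 auxin and -0.09 (SE 0.12) for Yeats2 auxin. Map2k2, the gene of the other MEK kinase, is named here after its values were seen. It had 0.84 (SE 0.34, adjusted P 0.189 by edgeR) and 0.18 (SE 0.33). Its libraries had 18.5 and 35.7 CPM in control and 47.1, 29.3 and 70.1 in Zzz3 auxin. With the GC and length correction its log2 FCs were 0.39 and -0.04. Rps6ka1, which encodes the ERK-activated kinase RSK1, had 0.54 (SE 0.16) and 0.53 (SE 0.16) and was called by DESeq2 in Zzz3 auxin (adjusted P 0.0406). Its control libraries differed, with 123 and 185 CPM, while the 6 auxin libraries lay at 202 to 240, and after the GC and length correction the log2 FC in Zzz3 auxin was 0.24. Without Control replicate 1 and Zzz3 auxin replicate 3 it was 0.23 (SE 0.13).

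Of 14 other negative regulators, 13 were tested. Of these 0 were higher and 2 lower at a raw P below 0.05 for Zzz3 auxin and 0 and 1 for Yeats2 auxin, with medians of -0.09 and -0.17. Spred1, a relative of the sprouty genes, had log2 FCs of -0.35 (SE 0.13) for Zzz3 auxin and -0.09 (SE 0.13) for Yeats2 auxin. Rasa1, a GTPase-activating protein that switches RAS off, had -0.34 (SE 0.17) and -0.24 (SE 0.17), and Errfi1, an inhibitor of the EGF receptor, -0.26 (SE 0.16) and -0.25 (SE 0.16). With the GC and length correction Spred1 had -0.15 and 0.07, Rasa1 -0.17 and -0.08 and Errfi1 -0.20 and -0.22.

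Of 15 other immediate early genes, 12 were tested. At a raw P below 0.05, 5 were higher and 2 lower for Zzz3 auxin and 3 and 2 for Yeats2 auxin, with medians of 0.35 and 0.29. Fos, Fosb and Dusp2, among those 5, had control means of only 0.47, 0.189 and 0.0927 CPM. Fos and Dusp2 were also among the 3. The filter can keep genes this low for the libraries where they are higher, so these counts and medians may partly rest on it. Of the most abundant, Klf6 had a log2 FC of -0.35 (SE 0.12) in Zzz3 auxin and -0.36 (SE 0.12) in Yeats2 auxin, Ier2 had 0.14 (SE 0.24) and 0.32 (SE 0.24) and Dusp1, a nuclear phosphatase of MAP kinases, -0.18 (SE 0.26) and 0.06 (SE 0.26). With the GC and length correction Klf6 had -0.16 and -0.22, Ier2 -0.21 and 0.08 and Dusp1 -0.33 and -0.08. DESeq2 called 2 genes of the list, both higher in Zzz3 auxin, which are named here after their values were seen: Junb (adjusted P 0.0198), an AP-1 subunit, and Ier5 (adjusted P 0.0282). Junb had 1.92 and 2.59 CPM in control and 4.22, 3.63 and 12.9 in Zzz3 auxin, so that replicate 3 was far above the rest. Its GC content is 62.6%, and the GC and length correction took its log2 FC from 1.58 to 1.00. Without Control replicate 1 and Zzz3 auxin replicate 3 it was 0.61 (SE 0.43). Ier5 had 3.45 and 3.95 CPM in control, then 6.95, 5.72 and 7.16 after Zzz3 auxin and 6, 7.63 and 4.87 after Yeats2 auxin. All 6 auxin libraries exceeded both controls in Ier5, and without the 2 libraries of strong GC trend the log2 FC for Zzz3 auxin went from 0.83 (SE 0.24) to 0.69 (SE 0.33).

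All 10 other ETS and SRF factors were tested. In Zzz3 auxin 2 were higher and 1 lower at a raw P below 0.05 and in Yeats2 auxin 1 and 1, with medians of -0.06 and -0.12. Gabpa had a log2 FC of -0.20 (SE 0.14) in Zzz3 auxin and -0.10 (SE 0.14) in Yeats2 auxin, and Ets2 had -0.16 (SE 0.13) and -0.14 (SE 0.13). With the GC and length correction Gabpa had -0.01 and 0.06, and Ets2 -0.28 and -0.24. Srf, which encodes the serum response factor of immediate early promoters, had 11.1 and 21.2 CPM in control, then 36.0, 23.2 and 39.9 after Zzz3 auxin and 23.2, 27.4 and 23.1 after Yeats2 auxin. Against control, Zzz3 auxin gave it a log2 FC of 1.03 (SE 0.28, adjusted P 0.0882 by edgeR) and DESeq2 called it (adjusted P 0.00747). Srf has a GC content of 64.4%, and the GC and length correction gave 0.52. Without Control replicate 1 and Zzz3 auxin replicate 3 its log2 FC was 0.49 (SE 0.25). Of these genes Fgfr1, Fgf15, Rps6ka1, Rasa1, Spry1, Dusp1, Junb and Gabpa share exonic bases with a gene on the opposite strand, up to 761 per overlap and at least 11. Counted without strand, reads there would be ambiguous and left out, and the strand setting is not stated.

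**Figure D5:**
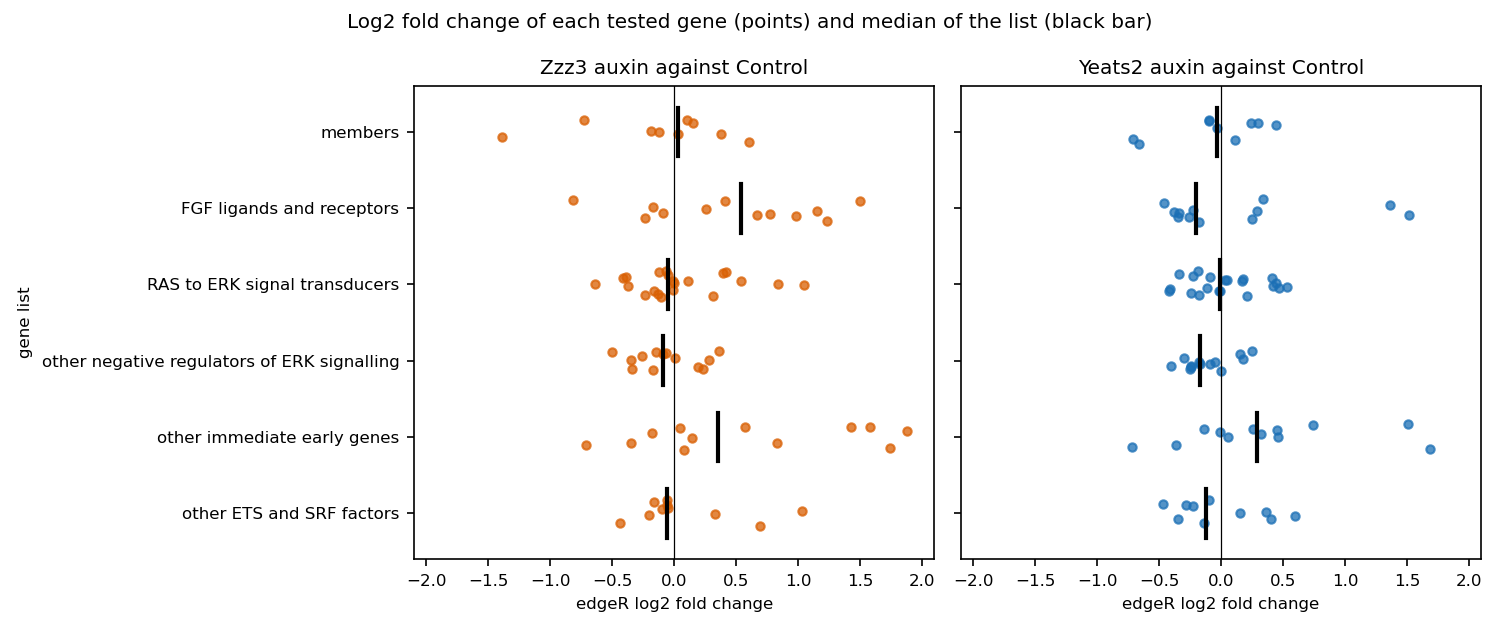
Log2 FC against control (x axis) of each tested gene (points) of the 10-gene set and of the 5 pathway lists (y axis), with the median of each list as a black bar, for Zzz3 auxin (left) and Yeats2 auxin (right). The medians of the FGF ligands and receptors (0.54 and -0.20) and of the other immediate early genes (0.35 and 0.29) lie furthest from 0, and no gene shown was called by edgeR. Both of these lists hold genes near the floor of counting.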

How the data were processed

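Total RNA of 8 mouse ESC libraries was analysed from the deposited raw counts, 1 file per library. Per the labels the molecule is polyA RNA, while the protocol describes ribosomal RNA depletion. To make these counts, the authors trimmed reads, removed ribosomal RNA, aligned the rest to mm10 with STAR 2.5.3a and tallied the unique alignments over each gene by HTSeq 0.6.1p1 in union mode, leaving ambiguous reads out. The strand option is not given in the sources used here. The 5 tallies of unassigned reads were removed, and GENCODE annotation of GRCm38 named 55141 of 55401 genes. Library totals were 14315120 to 27884704 counts.

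Genes passing filterByExpr (17532) were fitted over all 8 libraries with TMM scaling by the robust quasi-likelihood test of edgeR 4.0.16 in R 4.3.3. Two-sided P values received the Benjamini-Hochberg adjustment within each comparison over all genes tested, and genes were called at an adjusted P under 0.05. The SE is the size of the log2 FC divided by the square root of F, and 95% intervals use the degrees of freedom of the fit. Likeness used log2 CPM with a prior count of 2 in protein-coding genes of at least 2 CPM on average. Start-site sequences are from RefSeq on GRCm38.p6, and figures were drawn in Python 3.11.15 with matplotlib 3.10.9. Alternatives were DESeq2 1.42.0, its size factors within edgeR, testing unfiltered genes or those averaging 1 CPM or more, the compared groups alone, a replicate block, a GC and length correction by lowess (span 0.3), both together, and each library left out. The pipeline was tested on simulated counts that held no GC trend and larger log2 FCs than those of Spry2 and Spry4. That test does not cover GC trends or changes of their size.

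The members and lists were chosen with earlier results of these data known. All 10 members are named, with the 3 most abundant genes of each pathway list, the 3 genes most like Fgf4 and most like Dusp6, and the targeted genes, except 1 gene of the signal transducers that is not reported here.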

Additional observations from a re-analysis of the deposited data

How the results depend on the processing

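Over 27 log2 FCs of the members, 453 refits kept direction and side of the threshold in 416 cases, 6 passed it newly (Spry2 and Spry4, as given above) and 31 changed sign, all of them in values that were never called. Without any filter edgeR called 1542, 553 and 117 genes (Zzz3 auxin and Yeats2 auxin, each set against control, and Yeats2 auxin set against Zzz3 auxin) and DESeq2 called 1114, 434 and 3, in place of 132, 78 and 0, and members called were 2, 0 and 1 without a filter and 2, 0 and 0 with DESeq2. With only the compared groups fitted, 0 genes were called in Zzz3 auxin and 454 in Yeats2 auxin. GC and length correction gave 132 in Yeats2 auxin. Leaving out each library in turn gave 0 to 841, 0 to 217 and 0 to 1 genes and 0 to 1, 0 to 0 and 0 to 0 members. Each of the 8 libraries moved the first count by over 1.5 times, and each but Zzz3 auxin replicate 2 the second. Without both libraries of strong GC trend (chosen after seeing the data) the calls were 18, 8 and 1 by edgeR and 197, 155 and 6 by DESeq2, with no member among them. The cause of these shifts was not tested.

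Whether replicate numbers pair the controls with the auxin libraries could not be decided. Same-numbered libraries of different groups correlated at -0.338 to 0.305 in their deviations (7 pairs), others at -0.371 to 0.371 (14 pairs). The deviations of the controls mirror each other, so their correlations with any auxin library differ only in sign. Between the auxin groups, same-numbered pairs had 0.021, 0.046 and -0.072 and others -0.101 to 0.058, and no pairing was seen there. The replicate block gave 42 and 32 calls against control, and with the GC and length correction 66 in Zzz3 auxin, and no member was called with it. Under the replicate block Phlda1 had log2 FCs of -0.39 for Zzz3 auxin and -0.11 for Yeats2 auxin, while Spry2 had 0.11 for Yeats2 auxin, and with the block and correction together Phlda1 had -0.69 and -0.29, Etv4 -0.07 (Zzz3 auxin) and Spry2 0.17 (Yeats2 auxin). The correction alone gave Phlda1 -0.34 (Zzz3 auxin) and Spry2 0.05 (Yeats2 auxin). Without both libraries of strong GC trend, Etv4 had -0.06 and Phlda1 -0.23 in Zzz3 auxin, and Dusp4 had 0.01, Spry2 0.14 and Etv5 0 in Yeats2 auxin.

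Leaving out each library in turn, log2 FCs that changed sign ranged in Zzz3 auxin from -0.03 to 0.27 for Dusp6 and from -0.33 to 0.52 for Phlda1, in Yeats2 auxin from -0.36 to 0.02 for Dusp4, from -0.18 to 0.13 for Spry2 and from -0.01 to 0.24 for Etv5, and between the auxin groups from -0.04 to 0.06 for Fgf4, from -0.02 to 0.28 for Dusp6, from -0.19 to 0.32 for Etv4, from -0.08 to 0.01 for Etv5 and from -0.20 to 0.64 for Phlda1. Where 1 control remained, it was assumed to vary like the other groups. The level of Etv4 was 12.9 FPKM with the longest transcript, and the other 9 levels moved by less than 1 SD. Counts limit what can be said of Egr1, Phlda1 and Dusp4, and the 2 controls limit the rest.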
